A study of Homo sapiens with 16 samples.

Results

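TIPARP, a mono-ADP-ribosyltransferase also called PARP7, was followed with 6 genes of the aryl hydrocarbon receptor pathway, namely AHR, ARNT, AHRR, CYP1A1, CYP1B1 and NQO1, in HEK293 cells given a mineralocorticoid, a phorbol ester or both. TIPARP was chosen by its measured values, because its rise with the steroid was larger in the presence of the phorbol ester. The other 6 genes were taken for their place in the pathway. Together the 7 genes, of 18132 named on the array, were read by 21 probe sets of 49293. A probe set is the group of short probes that measures one transcript region.

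HEK293 is a human embryonic kidney cell line. All 16 cultures had received an expression plasmid for the mineralocorticoid receptor (MR) at 500 ng per well, 24 h before a 4 h treatment. The 4 groups held 4 biological replicates each. They were given 100 nM DOC (the usual short name of the mineralocorticoid deoxycorticosterone) plus 10 nM PMA (the phorbol ester, an activator of protein kinase C), DOC alone, PMA alone, or vehicle, which the labels of those samples call no treatment. The title of the series asks how MR acts on AP-1 and inflammatory signalling. No group without the MR plasmid or with a ligand of the aryl hydrocarbon receptor was analysed here, so the steroid responses cannot be assigned to MR rather than to another steroid receptor of the cells.

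The aryl hydrocarbon receptor, AHR, is a transcription factor that waits in the cytoplasm on a chaperone complex until it binds a ligand, such as dioxin or a tryptophan metabolite. It then enters the nucleus, pairs with ARNT and binds xenobiotic response elements, DNA sites with the core GCGTG, beside genes such as CYP1A1 and CYP1B1, which encode cytochrome P450 enzymes. Some of its targets turn it off again: AHRR competes for ARNT, and TIPARP marks the receptor with ADP-ribose and limits its activity. TIPARP is also known as a gene that steroid receptors can induce, as the androgen receptor does in prostate cancer cells. NQO1, a quinone reductase, answers both to AHR and to the oxidative stress factor NRF2.

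Signals were log2 values after robust multi-array averaging (RMA), with 1 unit standing for a doubling and array medians from 4.91 to 4.96. Arrays of one group correlated at 0.991 to 0.997 over the 12495 genes tested, and 3 arrays (DOC plus PMA replicate 2, DOC replicate 1 and PMA replicate 2) departed from their group means alike, with correlations of 0.425 to 0.554. INA and VIM, filament genes that HEK293 cells express, lay above the array median in all 16 arrays (7.83 to 8.34 and 12.5 to 12.9), while PAX2, a kidney lineage gene, did so in 3. All 9 markers of leukocytes, endothelium and fibroblasts had means below the lowest array median (2.18 to 4.59). By the measure used for PAX2, the leukocyte marker CD68 also lay above the array median in 3 arrays, and the others in none. NR3C2, the gene of MR, had signals of 6.88 to 7.51, and whether its probes read the plasmid was not tested. The signals come from whole cultures, in which fewer cells that express a gene and less RNA per cell cannot be told apart. A gene was represented by its brightest probe set, and it passed at an adjusted p under 0.05 (limma, Benjamini-Hochberg over all genes tested). All 7 genes had a probe set above the filter on dim values, and 19 of their 21 probe sets passed it.

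The DNA just upstream of the start of a gene is shown for the 3 genes with a match to the GCGTG core there, since this is the element that AHR and ARNT bind. RefSeq windows (GRCh38.p14) were found for 6 of the 7 genes, and CYP1B1 had none in the table used. Each run covers the 250 bases before the most upstream start, 5′ to 3′ on the strand of the gene, with the core, read on either strand (GCGTG or CACGC), in capitals. The TIPARP window is chr3:156674340-156674589 on the plus strand and lies within the antisense gene TIPARP-AS1, that of AHRR is chr5:321464-321713 on the plus strand and lies within the readthrough gene PDCD6-AHRR, and that of CYP1A1 is chr15:74725529-74725778 on the minus strand.
TIPARP: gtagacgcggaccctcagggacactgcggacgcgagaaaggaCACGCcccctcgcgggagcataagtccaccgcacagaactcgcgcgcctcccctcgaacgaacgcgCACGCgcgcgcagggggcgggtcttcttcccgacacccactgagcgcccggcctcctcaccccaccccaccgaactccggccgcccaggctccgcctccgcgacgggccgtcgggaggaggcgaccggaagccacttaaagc
AHRR: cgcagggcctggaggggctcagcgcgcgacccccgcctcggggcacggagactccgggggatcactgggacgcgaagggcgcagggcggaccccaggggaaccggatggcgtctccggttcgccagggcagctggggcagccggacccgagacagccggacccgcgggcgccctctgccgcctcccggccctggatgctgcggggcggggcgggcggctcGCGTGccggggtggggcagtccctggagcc
CYP1A1: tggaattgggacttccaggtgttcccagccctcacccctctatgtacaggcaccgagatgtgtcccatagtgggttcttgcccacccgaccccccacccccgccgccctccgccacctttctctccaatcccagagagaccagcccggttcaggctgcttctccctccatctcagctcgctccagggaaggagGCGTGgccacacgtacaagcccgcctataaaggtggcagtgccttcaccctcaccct

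TIPARP held 2 core matches in this window, 208 and 142 bases before the start, and CYP1A1 held 1. AHRR held 1, and this was the only match among the 3 to the longer form TNGCGTG. The windows of AHR, ARNT and NQO1, and those of both other TIPARP starts, held no core match, while the other AHRR start had 2. The core was found in 32.2% of all 35116 upstream windows and the longer form in 4.52%, so a single match is common. No window of these genes held the steroid response element half-site AGAACA (in 12.4% of all windows, either strand) or the AP-1 element TGANTCA (in 6.57%). Of the motifs searched, the longer form always contains the core.

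TIPARP was highest with both agents. Its signals were 10.13, 10.09, 9.98 and 10.09 with DOC plus PMA, 8.84, 8.22, 8.47 and 8.40 with DOC, 8.14, 8.00, 8.10 and 8.06 with PMA, and 7.82, 7.43, 7.69 and 7.74 with vehicle. The 4 groups did not overlap: every DOC plus PMA array lay above every DOC array, every DOC array above every PMA array, and every PMA array above every vehicle array. The share of all genes whose groups separate so was not counted. The step between the first and the second group was the widest, at 1.59. Those from DOC down to PMA and from PMA down to vehicle were both small, at 0.41 and 0.40, and the gap between the lowest DOC array (8.22) and the highest PMA array (8.14) was narrow.

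DOC raised TIPARP by 2.00 ± 0.11 (SE) in the presence of PMA, or 3.99-fold, and by 0.81 ± 0.11, or 1.76-fold, in its absence. The difference of these 2 effects, the interaction, was 1.18 ± 0.15. Without the 3 arrays that departed alike, the DOC effect was 1.96 with PMA and 0.69 without, and the interaction was 1.27. These values chose the gene, so they are a description and carry no p. For the same reason the PMA effects that enter the same difference, 1.59 ± 0.11 with DOC and 0.40 ± 0.11 without, are given without a test, as is their mean of 1.00 ± 0.07, to which the DOC plus PMA arrays also contribute. Across all genes 0.088% passed for the interaction, and nothing is read from that share here.

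A dimmer TIPARP probe set gave the same order of groups. It read 6.06, 5.83, 5.70 and 5.84 with DOC plus PMA, 4.44, 3.72, 3.94 and 4.20 with DOC, 4.18, 3.47, 3.88 and 3.76 with PMA, and 3.99, 3.60, 3.37 and 3.36 with vehicle. Here only the DOC plus PMA arrays stood apart, and the other 3 groups overlapped below the array medians. This set passed the filter only through arrays with PMA (5, against 2 without), so its effects are measured over signals near background. Its DOC effect was 2.03 ± 0.17 with PMA and 0.50 ± 0.17 without. Both probe sets measure the same RNA on the same arrays and are not separate evidence.

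**Figure D1:**
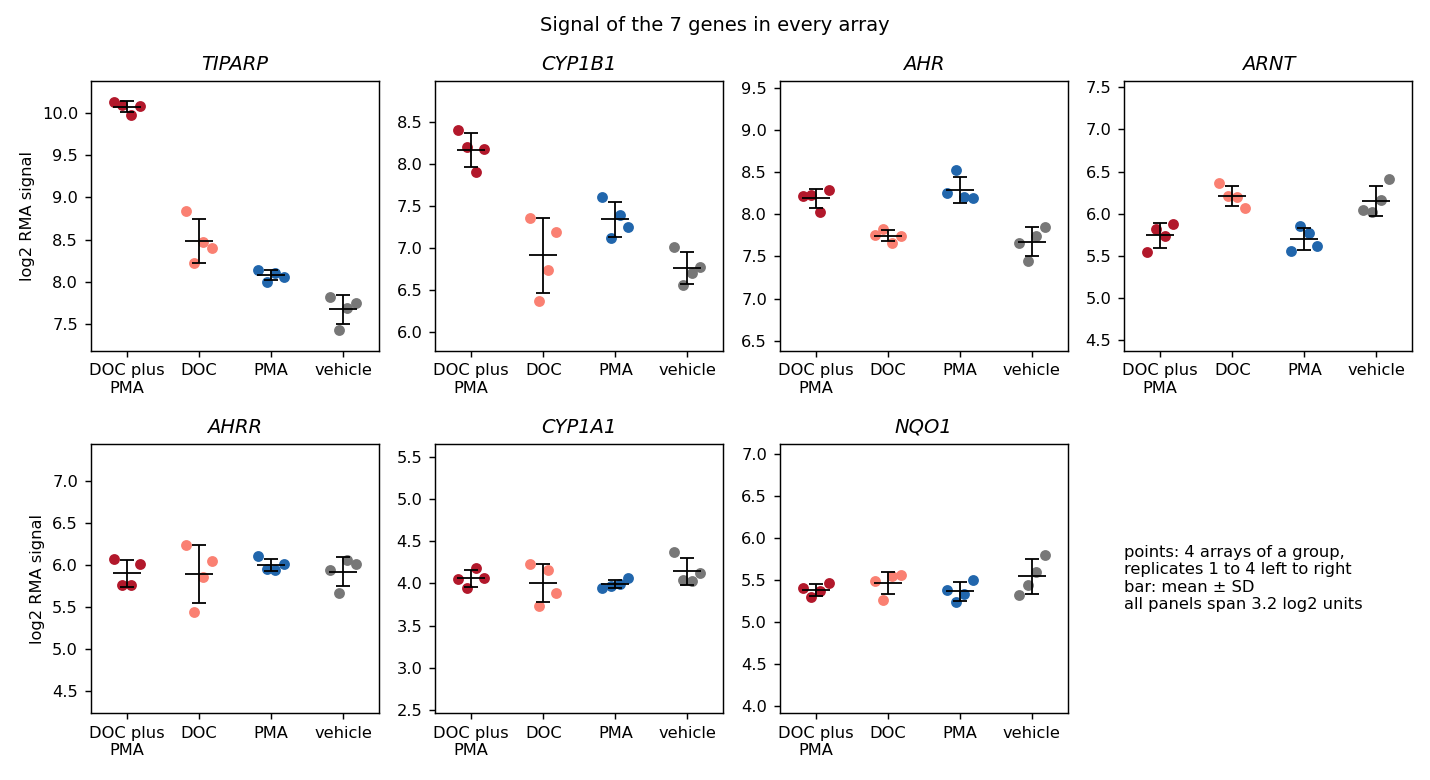
Log2 RMA signal (vertical axes, each spanning 3.2 units) of the 7 genes in the DOC plus PMA, DOC, PMA and vehicle groups, with a point per array and bars for mean ± SD of 4 arrays. TIPARP averages 10.07 with DOC plus PMA and 8.48, 8.08 and 7.67 in the DOC, PMA and vehicle groups, and CYP1B1 is highest with DOC plus PMA too, at 8.17.

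By the correlation of signals over the 16 arrays, the 5 genes of 12494 whose pattern was most like that of TIPARP were RGS2 (r = 0.985), RHOB (0.966), PDK4 (0.961), SLC19A2 (0.939) and KLHL36 (0.922). The arrays of a group share a treatment, so the effective number of points is small and no p is given. RGS2 regulates G protein signalling, RHOB is a small GTPase, PDK4 restrains pyruvate dehydrogenase and SLC19A2 carries thiamine. With DOC plus PMA against PMA alone, RGS2 was 1.33 higher, RHOB 1.08, PDK4 3.09, SLC19A2 0.74 and KLHL36 0.42. For DOC against vehicle the same differences were 0.64, 0.35, 1.92, 0.19 and 0.29. That each was smaller follows largely from the choice of genes, since TIPARP was picked for this pattern. The size for RHOB depended on the probe set, since the mean of its probe sets gave 0.36 with PMA and 0.19 without. CYP1B1 came 14th in this order (r = 0.867), whereas AHR (0.435), CYP1A1 (0.0263), AHRR (0.0257), NQO1 (−0.244) and ARNT (−0.387) stood far lower.

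CYP1B1, a cytochrome P450 that oxidises steroids and polycyclic hydrocarbons, was the other gene with its highest signals under both agents. It read 8.40, 8.20, 7.90 and 8.18 with DOC plus PMA, 7.36, 6.37, 6.74 and 7.19 with DOC, 7.60, 7.12, 7.39 and 7.25 with PMA, and 7.01, 6.56, 6.70 and 6.77 with vehicle. All DOC plus PMA arrays lay above all others, and all PMA arrays above all vehicle arrays. Such separation was not counted over all genes. The DOC arrays had the widest spread (SD 0.45) and overlapped both the PMA and the vehicle arrays.

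With PMA present, DOC raised CYP1B1 1.77-fold, by 0.83 ± 0.17 (limma, adjusted p = 0.0417, 4 arrays a group), where 0.384% of all genes passed and 0.36% passed upward. Without PMA the difference was 0.15 ± 0.17 (adjusted p = 1.00), where 0.12% of genes passed, and its 95% interval was −0.21 to 0.51. The difference of these 2 DOC effects was 0.67 ± 0.24, with an interval of 0.17 to 1.18, and it did not pass over all genes (unadjusted p = 0.0123, adjusted p = 1.00), so a larger DOC effect with PMA is not shown for CYP1B1. Its rise with DOC plus PMA against PMA was near the threshold. It was 0.75 to 0.84 with adjusted p = 0.0922 to 0.170 without PMA replicate 2, 3 or 4 or DOC plus PMA replicate 1, 2 or 4. It stayed at 0.83 with adjusted p = 0.0515 to 0.0640 without vehicle replicate 2, 3 or 4 or DOC replicate 3. A fit without the 3 arrays that departed alike gave 0.74 with adjusted p = 0.167.

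PMA raised CYP1B1 by 1.26 ± 0.17 in the presence of DOC, or 2.39-fold (adjusted p = 1.08e-05), and by 0.58 ± 0.17 without it, or 1.50-fold (adjusted p = 0.00958). Upward calls made up 15.7% of genes for DOC plus PMA against DOC and 17.7% for PMA against vehicle. Both calls were kept in all 25 other settings. Comparisons of one group with 2 others share its arrays, and so their values are not independent of each other.

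Of the 5 CYP1B1 probe sets, 4 were higher with DOC plus PMA than with PMA, by 0.83 to 0.98, and the same 4 were higher with DOC plus PMA than with DOC, by 1.19 to 1.36. The exception was a dim set at 3.78 to 4.33 in all arrays, below every array median, with differences of −0.09 in both comparisons. In a fit over all 44988 single-gene probe sets, 1 of the 5 passed for DOC plus PMA against PMA (0.98 ± 0.15, adjusted p = 0.00489), where 0.133% of probe sets passed. For DOC plus PMA against DOC 4 of the 5 passed, where 22.6% did in all. With PMA against vehicle all 5 were higher, by 0.12 to 0.58, but only 1 passed, where 26% did in all. The DOC effect without PMA was 0.04 to 0.15 over the 5 sets, and none passed. All 5 were read on the same arrays and are not separate evidence. Whether their probes match other sequences was not examined.

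**Figure D2:**
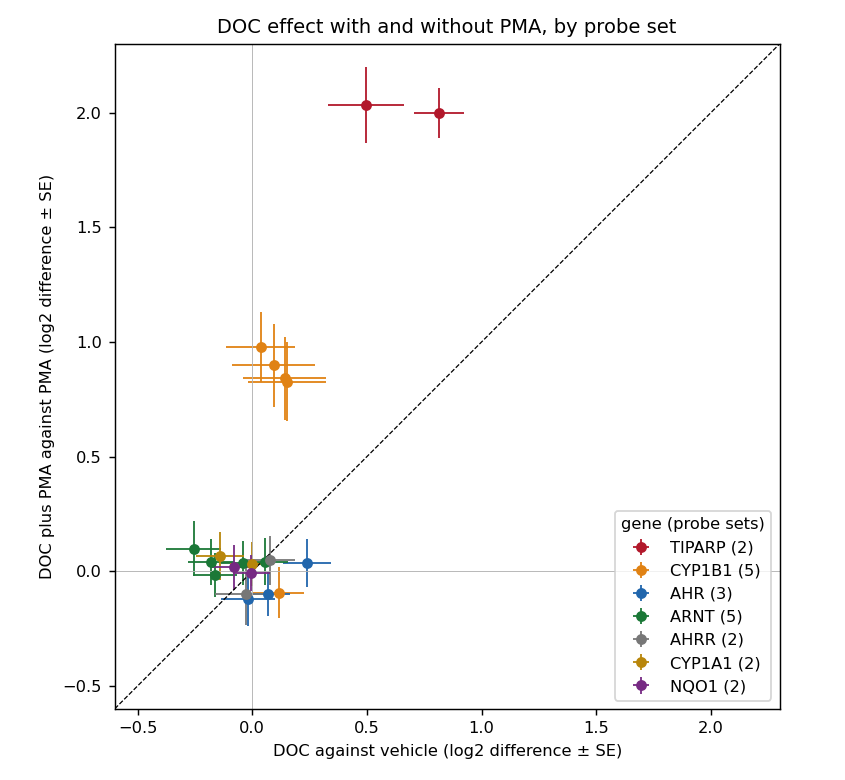
Log2 difference of DOC plus PMA against PMA (vertical axis) and of DOC against vehicle (horizontal axis) for the 21 probe sets of the 7 genes, with SE bars and a dashed line of equal effects. Both TIPARP sets lie far above the line, at 2.00 and 2.03 with PMA, 4 of 5 CYP1B1 sets lie above it at 0.83 to 0.98, and the other 15 sets lie between −0.12 and 0.10 on the vertical axis.

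AHR, the receptor itself, was higher with PMA and showed no difference with DOC past the threshold. Its signals were 8.22, 8.23, 8.03 and 8.29 with DOC plus PMA, 7.75, 7.82, 7.66 and 7.74 with DOC, 8.25, 8.52, 8.21 and 8.19 with PMA, and 7.67, 7.44, 7.74 and 7.85 with vehicle. All PMA-treated arrays lay above all arrays without PMA, while the PMA group overlapped DOC plus PMA and the DOC group overlapped vehicle. How many of all genes separate by PMA in this way was not counted. The PMA effect was 0.45 ± 0.09 with DOC, or 1.36-fold (adjusted p = 0.000627), and 0.62 ± 0.09 without, a 1.53-fold rise (limma, adjusted p = 2.23e-05). Of all genes 15.7% and 17.7% passed upward in these comparisons. Both AHR calls held in all 25 other settings, the fit without the 3 arrays included.

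The DOC effect on AHR was −0.10 ± 0.09 with PMA and 0.07 ± 0.09 without (both adjusted p = 1.00), with 95% intervals of −0.29 to 0.09 and −0.12 to 0.26. The brightest AHR probe set carries the suffix x, which the manufacturer gives to sets with probes that may match other sequences. A second set, with the suffix s in place of x, was at or above the filter level in all 16 arrays. In the fit over all probe sets it passed too, where 22.6% and 26% passed. Its differences were 0.46 for DOC plus PMA against DOC and 0.57 for PMA against vehicle. Whether its probes match other sequences was not examined. Both sets were read on the same arrays and are not separate evidence. The third reached the filter level in 7 arrays with PMA and in none without, so its differences of 0.58 and 0.79 are over background signals and add nothing on this point.

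ARNT, the partner that AHR and the hypoxia factors need to bind DNA, moved the other way. It read 5.54, 5.82, 5.73 and 5.88 with DOC plus PMA, 6.36, 6.21, 6.19 and 6.07 with DOC, 5.56, 5.85, 5.77 and 5.62 with PMA, and 6.04, 6.02, 6.16 and 6.41 with vehicle. All 8 arrays with PMA lay below all 8 without it, a separation whose share over all genes was not counted. ARNT fell by 0.47 ± 0.10 with DOC plus PMA against DOC (0.72-fold, adjusted p = 0.000789) and by 0.46 ± 0.10 with PMA against vehicle (0.73-fold, adjusted p = 0.000911). Falls were frequent, with 26.9% and 29.3% of all genes in these comparisons. The DOC effects were 0.04 ± 0.10 with PMA and 0.05 ± 0.10 without (both adjusted p = 1.00).

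The 5 ARNT probe sets were all lower with PMA than with vehicle, by differences of −0.83 to −0.14. In the fit over all probe sets 3 passed, where 26% did in all. Against DOC, DOC plus PMA was lower in 4 of the 5, with differences from −0.48 to 0.03, and 2 passed, where 22.6% did in all. The 4 sets besides the brightest were dim, between 3.41 and 4.99, and whether this shaped their differences was not tested. The set with the widest difference was among the dim ones. It reached the filter level in all 8 arrays without PMA and in 1 with it. The mean of the kept ARNT sets gave −0.29 for DOC plus PMA against DOC. These sets too share the same arrays and are not separate evidence.

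AHRR, the repressor that AHR induces, had overlapping groups. Its signals ran from 5.77 to 6.07 with DOC plus PMA, from 5.44 to 6.24 with DOC, from 5.94 to 6.11 with PMA and from 5.67 to 6.06 with vehicle. Its 4 pairwise differences lay between −0.10 and 0.08 and none passed (adjusted p = 0.650 to 1.00). The 95% intervals of the DOC effects were −0.38 to 0.18 with PMA and −0.30 to 0.25 without. Its dimmer probe set had differences of 0.05 to 0.17, and none passed.

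CYP1A1, the classical target of AHR, stayed below every array median. It read 4.05, 3.94, 4.19 and 4.06 with DOC plus PMA, 4.23, 3.74, 4.15 and 3.89 with DOC, 3.95, 3.97, 3.99 and 4.07 with PMA, and 4.38, 4.04, 4.03 and 4.12 with vehicle. No group stood apart, its differences lay between −0.15 and 0.07, and none passed (adjusted p = 0.239 to 1.00). This set only just passed the filter, whose level was 4.05 to 4.12, in 1 array with PMA and 4 without, and its second probe set, at 3.39 to 3.75, did not. At such signals small changes may be missed.

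NQO1 also showed no difference past the threshold in its brighter probe set. That set read 5.40, 5.30, 5.36 and 5.46 with DOC plus PMA, 5.49, 5.27, 5.54 and 5.56 with DOC, 5.38, 5.23, 5.34 and 5.50 with PMA, and 5.33, 5.44, 5.60 and 5.80 with vehicle. The groups overlapped, and the PMA effect was −0.08 ± 0.09 with DOC (adjusted p = 0.533) and −0.18 ± 0.09 without (adjusted p = 0.132). The PMA effect without DOC passed as −0.23 when both probe sets were averaged (adjusted p = 0.0108) and as −0.25 without vehicle replicate 1 (adjusted p = 0.0404). The dimmer set lay below the array medians, at 3.68 to 4.18, reached the filter level in 5 arrays without PMA and in none with it, and was lower by 0.29 with DOC plus PMA than with DOC and by 0.28 with PMA than with vehicle, both past the threshold among all probe sets (adjusted p = 0.0136 and 0.0130). NQO1 had no DOC effect past the threshold, at 0.02 ± 0.09 with PMA and −0.08 ± 0.09 without.

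**Figure D3:**
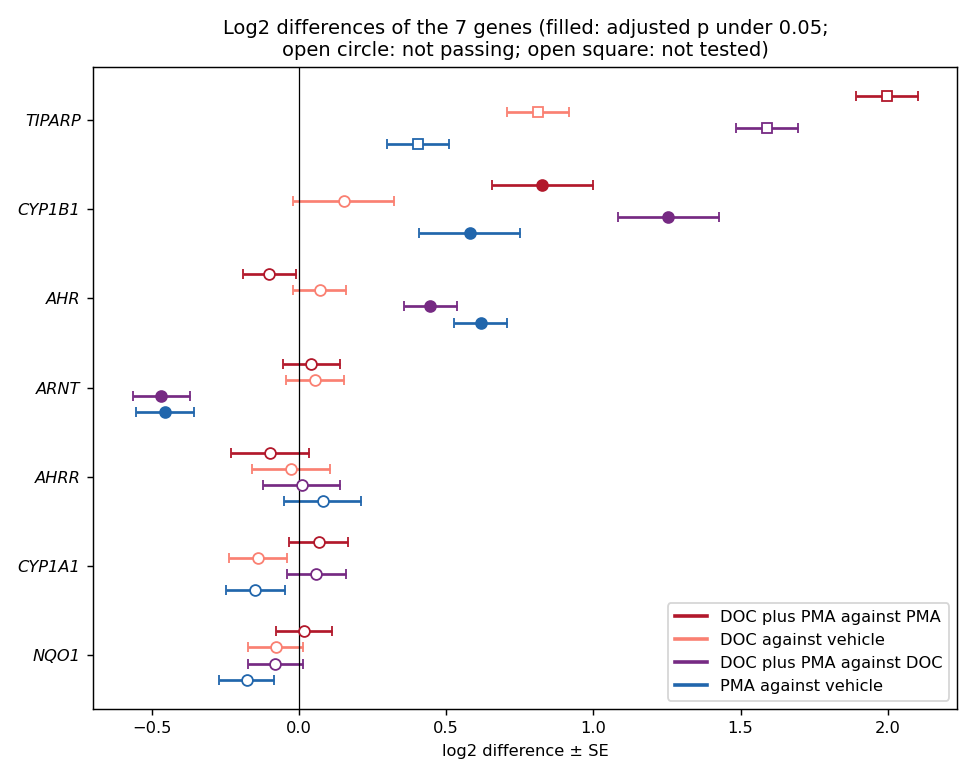
Log2 differences ± SE (horizontal axis) of the 7 genes for DOC plus PMA against PMA, DOC against vehicle, DOC plus PMA against DOC, and PMA against vehicle. Filled circles passed at an adjusted p under 0.05, open circles did not, and the open squares of TIPARP were not tested. AHR lies right of 0 for both PMA comparisons (0.45 and 0.62) and ARNT left of it (−0.47 and −0.46), while AHRR, CYP1A1 and NQO1 are near 0.

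Genes around the pathway were read from 8 lists with 97 genes, of which 75 were tested. With PMA against vehicle 22 of the 75 rose and 16 fell, where 17.7% and 29.3% of all genes did. With DOC plus PMA against DOC 20 rose and 15 fell, where 15.7% and 26.9% of all genes did. Apart from 2 genes that passed the filter through only the arrays with or only those without PMA (PTGS2 and ALDH3A1), 21 of 73 rose and 16 fell with PMA against vehicle. No gene of the 75 passed for DOC plus PMA against PMA, for the interaction or for DOC against vehicle (limma). Of all genes 0.384%, 0.088% and 0.12% passed, so a lack of calls among 75 says nothing particular about these lists. The counts at an unadjusted p under 0.05 were 4, 3 and 6, or 5.33%, 4.00% and 8.00% of the 75. Of all genes 4.35%, 2.96% and 3.09% had one.

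Among 14 other enzymes of the PARP family, 7 fell with PMA against vehicle, 1 rose and 6 did not pass, with a median of −0.30 against −0.04 over all genes. Falls made up 29.3% of all genes and rises 17.7%. The telomere-associated tankyrase TNKS was at −0.76 ± 0.13 (adjusted p = 0.000131), PARP16 at −0.51 ± 0.09 and the DNA repair enzyme PARP2 at −0.45 ± 0.05, while PARP8 rose by 0.55 ± 0.07. The mean of the TNKS probe sets gave 0.12 and did not pass (adjusted p = 0.126), so the direction of TNKS depends on the probe set. With probe sets averaged, 5 of the 14 fell, and the median was −0.08. The median and the share of falls over all genes are not given for that setting. With DOC plus PMA against DOC the same family had 6 falls and 1 rise, where 26.9% and 15.7% of all genes had one. Of 5 genes that remove or read ADP-ribose, 2 fell with PMA: OARD1, which takes terminal ADP-ribose off proteins, by 1.08 ± 0.07 (adjusted p = 4.92e-10), and the glycohydrolase PARG by 0.44 ± 0.07.

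In the NRF2 pathway, to which NQO1 belongs, 8 of 15 genes rose with PMA against vehicle and 1 fell, with a median of 0.22. Of all genes 17.7% rose and 29.3% fell. The sulfiredoxin SRXN1 rose by 0.94 ± 0.07 (adjusted p = 7.61e-09), the partner protein MAFG by 0.73 ± 0.09, NFE2L2, the gene of NRF2 itself, by 0.61 ± 0.08 and the haem oxygenase HMOX1 by 0.55 ± 0.11. The one that fell, named after its value was seen, was the NRF2 inhibitor KEAP1 at −0.52 ± 0.07. With DOC plus PMA against DOC 8 rose and 1 fell as well, where 15.7% and 26.9% of all genes did.

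Targets of the hypoxia factors, which share ARNT with AHR, went both ways, with 7 rises and 4 falls among 13 and a median of 0.24 for PMA against vehicle. In this comparison 17.7% of all genes rose and 29.3% fell. NDRG1 rose by 1.75 ± 0.10 (adjusted p = 2.86e-10), the glycolytic regulator PFKFB3 by 1.08 ± 0.10 and ANKRD37 by 0.85 ± 0.16, while the mitophagy receptor BNIP3 fell by 0.79 ± 0.11. PFKFB3 rose by 0.64 when its probe sets were averaged. Of 9 other AHR targets 3 rose and 1 fell, with a median of 0.15, or 0.38 over the 6 genes that a 60th percentile filter left. The cyclooxygenase PTGS2 averaged 7.37 ± 0.14 with PMA and 3.28 ± 0.23 with vehicle (SD, n = 4 each). It was below the filter level in all 8 arrays without PMA and passed the filter only through those with it, so its difference of 4.10 ± 0.11 (2.84 with probe sets averaged) is measured over a background signal, and it had to be among the rises. The amino acid transporter SLC7A5 rose by 0.81 ± 0.08 and NFE2L2 by the value above, while SLC7A5 rose by 0.53 as the mean of its probe sets. In the same list the transcriptional repressor HES1 fell by 0.32 ± 0.10, a call lost when its probe sets were averaged (−0.13, adjusted p = 0.112).

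Of 10 other factors of the bHLH-PAS family, to which AHR and ARNT belong, 2 rose with PMA against vehicle. In that comparison 17.7% of all genes rose and 29.3% fell. NPAS2 rose by 0.51 ± 0.08 (limma, adjusted p = 3.72e-05) and NPAS1 by 0.23 ± 0.08. The median of this family was 0.07, and 0.033 to 0.045 without PMA replicate 2 or 4 or vehicle replicate 4. Leaving out PMA replicate 2 or 3, or vehicle replicate 2 or 4, ended the NPAS1 call at 0.16 to 0.23 (adjusted p = 0.0507 to 0.0898). Of 7 chaperones and coactivators of AHR, 2 rose and 1 fell, with a median of 0.13. Without PMA replicate 1 all 3 calls ended, and the median was 0.07. The coactivator EP300 was at 0.47 ± 0.16 (adjusted p = 0.0245), the chaperone HSP90AB1 at 0.17 ± 0.07 (adjusted p = 0.0464) and the coactivator NCOA1 at −0.26 ± 0.08 (adjusted p = 0.0176). HSP90AB1 did not pass in 13 of 25 other settings, the block of replicate numbers among them (adjusted p = 0.0571). The EP300 call ended at 0.35 to 0.43 when PMA replicate 1 or 2, or vehicle replicate 1 or 2, was left out (adjusted p = 0.0659 to 0.0895), and it was 0.30 with array weights (adjusted p = 0.114). The NCOA1 call ended at −0.23 without PMA replicate 1 and at −0.20 without vehicle replicate 3 (adjusted p = 0.0521 and 0.0726). None of 3 genes of AHR ligand metabolism passed with PMA (median 0.01), 1 had an unadjusted p under 0.05, as 53.1% of all genes did, and 5 of the 8 listed were too dim to test. Without PMA replicate 2, 1 of the 3 rose and 1 fell.

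**Figure D4:**
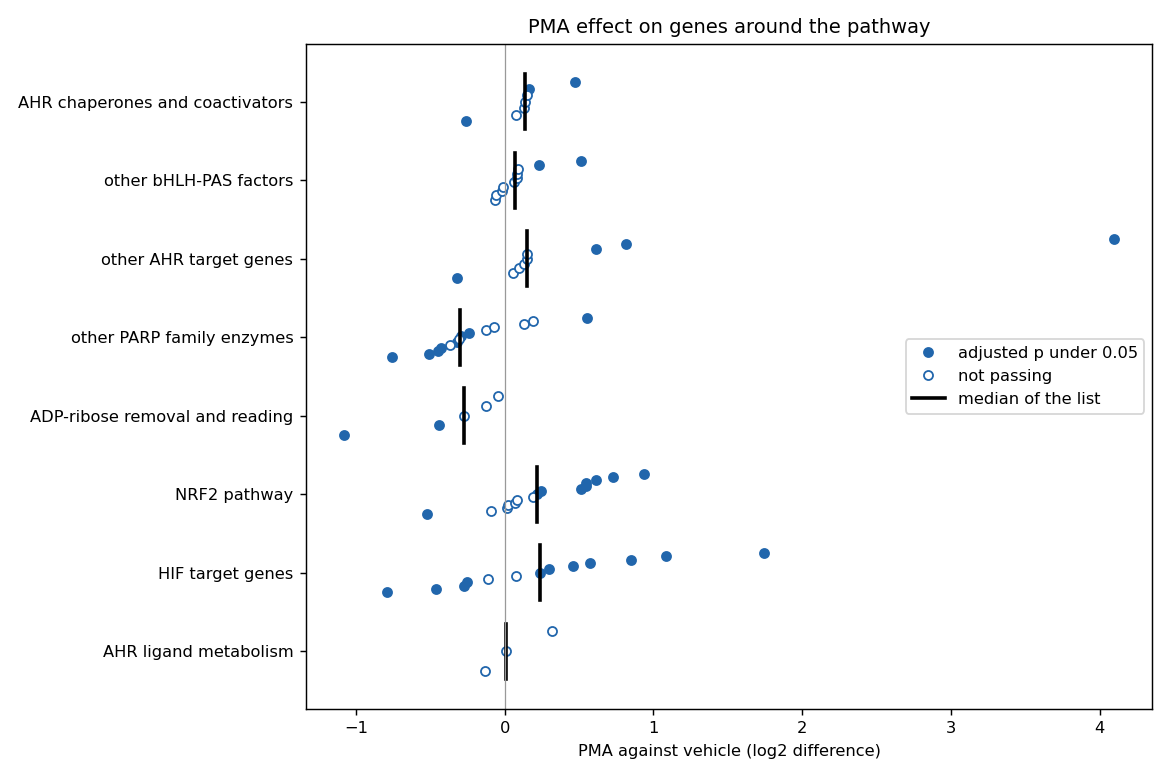
Log2 difference of PMA against vehicle (horizontal axis) for the tested genes of the 8 lists (rows), 1 point per gene, filled where the adjusted p was under 0.05, with a bar at the median of the list. The PARP family has its median at −0.30 (−0.08 with probe sets averaged), the NRF2 pathway at 0.22 and the hypoxia factor targets at 0.24.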

How the data were processed

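Expression was measured in 16 cultures of HEK293 cells on Affymetrix PrimeView arrays. The log2 signals that the authors deposited came from RMA in Expression Console, as the submitters' processing notes name it, with no version. RMA gives all arrays a common distribution, so a shift of all transcripts one way cannot be seen. Of 49293 probe sets, 44988 were paired with 1 gene by the platform annotation, 1832 with several and 2473 with none, and 44961 matched a current gene by identifier. Probe sets at or above the 40th percentile of an array on 4 or more arrays were kept (28226 with 1 gene), and the kept probe set with the highest mean stood for each of 12495 genes. Group means were fitted with lmFit and eBayes in limma 3.58.1 (R 4.3.3), two-sided, after tests on simulated data. Values after ± are SE of log2 differences or, for levels, SD. Arrays have no read depth, and their number limits precision (median SE 0.0879 for 2 groups).

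The genes and lists were chosen with earlier results of these data known. The named genes were the 7 of the pathway, up to 4 per list with the largest PMA effect past the threshold, the 5 closest to TIPARP by correlation, and the markers. What arrays of one replicate number share is not labelled. The deviations of DOC plus PMA and PMA arrays of the same number correlated at 0.157 to 0.549, above 0.1 in 4 of 4 pairs. Those of other groups did so in at most 3 of 4. Replicate 2 of both groups was among the 3 arrays that departed alike. A pairing of these 2 groups is thus a reading from the data alone. The main fits used no block, and a replicate block was one of the other settings. Other settings were no filter, a 60th percentile filter, averaged probe sets, 2 other scalings, array weights, a trended variance, a replicate block and leaving out arrays. The summed signals of the leukocyte, endothelial and fibroblast markers overlapped between groups, except that the leukocyte sum was 9.42 to 10.04 with DOC and 10.05 to 10.44 with PMA, 2 groups set side by side only in the order of levels. The mean PMA effect of TIPARP, for which the design had a test, is given without its p.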

Additional observations from a re-analysis of the deposited data

Results flagged for a closer look

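The DOC effect on TIPARP was larger with PMA than without by 1.18 on the log2 scale, 2.00 against 0.81. This difference between conditions is the value by which the gene was chosen, so it is listed as a description and not as a test. None of the 28 sets of 4 arrays (7 genes in 4 groups) had a highest or lowest array whose gap to the next exceeded the limit of Dixon's test.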

How the results depend on the processing

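Most values of the 7 genes kept their side of the threshold in the 24 to 26 alternatives tried for each, and a value that passed in neither setting was counted as kept when it moved by less than the spread of replicates. CYP1B1 for DOC plus PMA against PMA did not pass after cyclic loess (0.82, adjusted p = 0.0559), without the 3 arrays that deviated together (0.74) or in 10 of 16 fits that left out 1 array (0.75 to 0.92 over all 16, adjusted p = 0.00823 to 0.170), and the cause was not tested. With the replicate block it was 0.83 with adjusted p = 0.00207 over all 16 arrays and 0.00542 over the PMA and DOC plus PMA arrays alone, and the block changed no call of the 7 genes. The averaged probe sets gave 1.36 for the TIPARP interaction. For NQO1 they gave −0.23 with PMA against vehicle and −0.18 with DOC plus PMA against DOC (limma, adjusted p = 0.0406). For ARNT they gave −0.10 with DOC against vehicle and 0.14 for the interaction, and for TNKS 0.12 with PMA against vehicle. An average takes in the sets besides the brightest, and why these values differed from the main ones was not tested. NQO1 with PMA against vehicle was −0.25 to −0.092 with 1 array left out. The 48 genes past the threshold for DOC plus PMA against PMA became 89 with array weights and 31 to 53 with 1 array left out, fewest without DOC plus PMA replicate 4, and the 11 for the interaction became 25 and 5 to 14, fewest without DOC replicate 4. CYP1A1 and NQO1 were too dim for the 60th percentile filter. Low signal limits what can be said of CYP1A1 and of the dimmer probe sets.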

Other observations

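TIPARP and CYP1B1 ranked the replicates alike within groups. In both genes replicate 1 was the highest array of each of the 4 groups, at 10.13, 8.84, 8.14 and 7.82 for TIPARP and 8.40, 7.36, 7.60 and 7.01 for CYP1B1 in the DOC plus PMA, DOC, PMA and vehicle groups. In both genes replicate 2 was the lowest array of the DOC, PMA and vehicle groups and replicate 3 that of DOC plus PMA. AHRR too had replicate 1 highest in the DOC plus PMA, DOC and PMA groups, at 6.07, 6.24 and 6.11, but not with vehicle. The likeness of TIPARP and CYP1B1 was noticed in the data and was not tested. How many of all genes rank the replicates so was not counted.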
